A study of Mus musculus with 47 samples.

Results

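Aminoacyl-tRNA synthetases are the enzymes that attach each amino acid to its own transfer RNA (tRNA) before translation. The 36 genes followed here were taken by name, with no value used in the rule, out of 55416 gene identifiers in the count tables. By their names 20 were counted as cytosolic and 16 as mitochondrial. Gars and Kars, each known to encode the enzyme of both compartments, were counted as cytosolic. The cytosolic members were Aars, Cars, Dars, Eprs, Farsa, Farsb, Gars, Hars, Iars, Kars, Lars, Mars1, Nars, Qars, Rars, Sars, Tars, Vars, Wars and Yars. The mitochondrial members were Aars2, Cars2, Ears2, Fars2, Hars2, Iars2, Lars2, Mars2, Nars2, Pars2, Rars2, Sars2, Tars2, Vars2, Wars2 and Yars2. All 36 passed the filter on low counts in both sexes. Iars and Iars2 charge isoleucine, Lars and Lars2 leucine, and Vars and Vars2 valine. The question was whether these 6 genes moved when their own amino acid was lowered in the diet, and how the 30 enzymes for other amino acids behaved beside them.

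When an amino acid is short, its tRNA goes uncharged and activates the kinase GCN2 (Eif2ak4), which slows general translation and raises the synthesis of the transcription factor ATF4. ATF4 is known to induce amino acid transporters, biosynthetic enzymes such as asparagine synthetase (Asns) and a number of cytosolic synthetases. Several cytosolic synthetases sit in a large multi-synthetase complex on scaffold proteins, while the mitochondrial enzymes serve translation inside the organelle.

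The RNA came from the brains of 3xTg mice, an Alzheimer's disease model that carries mutant human APP and MAPT transgenes in every group, so no group was free of these alleles. Mice of both sexes were given the Control diet or a diet low in isoleucine (IleR), leucine (LeuR) or valine (ValR) from 6 months of age, for 9 months. Control comprised 4 male and 6 female libraries, IleR 3 and 5, LeuR 3 and 6, and ValR 4 and 6. The 10 other labelled male samples had no counts in the data used here and are not analysed. The authors removed clear outliers, and whether these 10 were among them is not given in the sources used here. A library is named by its diet and the number in its label, such as IleR 14. Nothing in the labels used says how the mice of a group were related or housed. The study's methods state that diets were assigned by cage, and the cage of each library is not given. Cage mates may not be independent, and the p-values measure only the spread between these samples.

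Total expected counts ranged from 12682687 to 25722333 in the 14 male libraries and from 10672599 to 21370973 in the 23 female libraries. Levels are given in CPM (counts scaled to library size after TMM normalization). Fold changes are on the log2 scale as value ± SE, with a p-value adjusted over all genes tested in that sex, and a gene was called where the adjusted p was under 0.05. The sum of 6 liver markers, checked because the extraction text names liver, stayed between 0.0659 and 9.69 CPM, with Ahsg or Fgb at 0 in some groups. A hindbrain score, the mean log2 CPM of 10 cerebellar and 10 brainstem genes minus that of 10 forebrain genes, set the male diets apart. Male Control libraries lay between -5.62 and -2.70 and the 10 male restricted libraries between -1.70 (LeuR 21) and 5.50, with no overlap. In males the summed cerebellar markers ran from 88.4 to 156 CPM in Control, 1580 to 4190 in IleR, 315 to 1670 in LeuR and 1680 to 5210 in ValR. Diet and regional content therefore cannot be told apart in the male comparisons with Control, and in bulk tissue fewer cells of a type and less RNA per cell cannot be told apart either. Female scores ran from -5.56 to 4.41 with the diets mixed along the range.

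**Figure D1:**
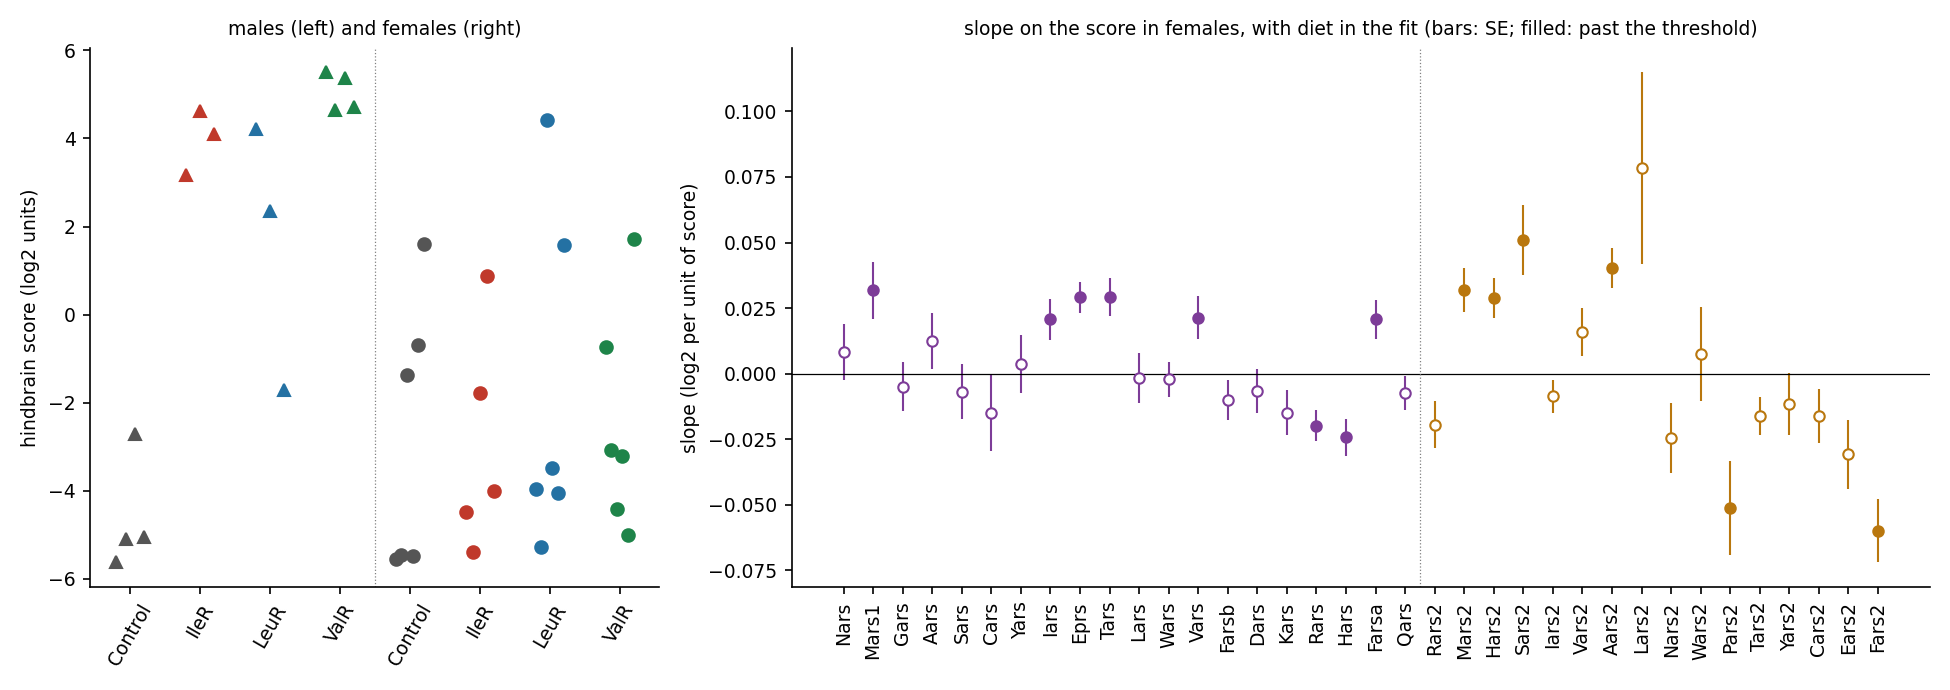
Left, the hindbrain score (log2 units, y axis) of every library by diet and sex; the 4 male Control libraries lie below all 10 male restricted libraries, while the female diets overlap. Right, the slope of the 36 genes on the score in females (log2 per unit of score, bars SE), of which 10 were called above and 4 below zero.

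Promoter sequences are shown for members whose window held a motif through which ATF4 is known to act upstream of the start. The RefSeq promoter table, on build GRCm38.p6, held 27 of the 36 members, each as a window of 250 bases before the gene's start and 50 from it on. The motif searched was TGATGNAA (TTNCATCA on the other strand), the core of the C/EBP-ATF response element. It stood in the windows of 5 of the 13 cytosolic members with an entry (38.5%), namely Aars, Gars, Iars, Tars and Yars, and in 0 of 14 mitochondrial members. A list of 30 amino acid response genes held it in 10 of 27 matched genes (37.0%), and all 27025 genes of the table in 4.5%. For Gars and Tars the match lay before the RefSeq start, and 60 bases around it are printed on the gene's own strand with the match in capitals.
Gars (chr6:55037941-55038000, plus strand): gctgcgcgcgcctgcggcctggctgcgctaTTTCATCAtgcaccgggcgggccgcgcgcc
Tars (chr15:11399659-11399718, minus strand): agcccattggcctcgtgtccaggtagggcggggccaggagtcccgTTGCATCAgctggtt
The capitals ended 23 and 8 bases before the RefSeq starts of Gars and Tars. Aars held a match before its RefSeq start that lies inside the longer span GENCODE M21 gives the gene, in an exon of another transcript, and is not printed. The matches in Iars and Yars lay after the RefSeq start, and the windows of Sars, Mars1 and Eprs held none. A match is a run of letters and says nothing of whether a factor was bound.

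Levels between genes were compared per kilobase of the principal transcript. In Control males the cytosolic members had a median of 22.9 CPM per kb, from 8.62 (Tars) to 85.4 (Nars), and the mitochondrial members a median of 7.44, from 1.84 (Wars2) to 26.4 (Lars2). Nars, which charges asparagine, was the highest at 85.4 ± 1.31 CPM per kb (SD, n = 4), followed by Wars (tryptophan) at 60.4 ± 5.20, Gars (glycine) at 52.1 ± 1.51 and Sars (serine) at 51.2 ± 2.83. The ranges of mean ± SD of Gars and Sars overlapped, and those of Nars and Wars lay apart from each other and from both. The cytosolic enzymes of the restricted amino acids were in the lower part of the order of the 20 cytosolic genes, with Iars at 17.8 ± 1.13, Vars at 13.3 ± 1.91 and Lars at 12.2 ± 0.739 CPM per kb, the last pair overlapping. Control females (n = 6) had Nars at 86.4 ± 5.62, Iars at 16.2 ± 1.18, Vars at 13.1 ± 0.749 and Lars at 11.9 ± 0.396 CPM per kb.

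IleR-fed males had higher levels of 6 cytosolic synthetases than Control-fed males by edgeR, which called no member lower. These were Nars, Aars (alanine), Mars1 (methionine), Sars, Eprs (glutamate and proline) and Yars (tyrosine), and none of them charges isoleucine, leucine or valine. Of all 22197 genes tested in males, 6.63% were called higher and 8.68% lower under IleR, against 16.7% (6 of 36) and 0.0% of the members. All 6 lay among the 20 cytosolic genes (30.0%), and edgeR called 0 of the 16 mitochondrial genes in either direction, while DESeq2 called Fars2 (mitochondrial phenylalanine) lower, where it called 11.4% of all genes lower. The cytosolic fold changes had a median of 0.24 with 18 of 20 above zero, the mitochondrial ones a median of -0.08 with 5 of 16 above zero, and all genes a median of 0.04. Without IleR 14 the cytosolic median was 0.12 and the mitochondrial one -0.06, and with the hindbrain score as a covariate the order turned, with medians of 0.04 (12 of 20 above zero) and 0.17 (11 of 16). In GRCm38, by GENCODE M21, the called genes outside chromosome 18, where Nars lies, are Aars chr8:111033144-111057664, Mars1 chr10:127296221-127311786, Sars chr3:108424865-108445209, Eprs chr1:185363044-185428360 and Yars chr4:129189760-129219607.

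**Figure D2:**
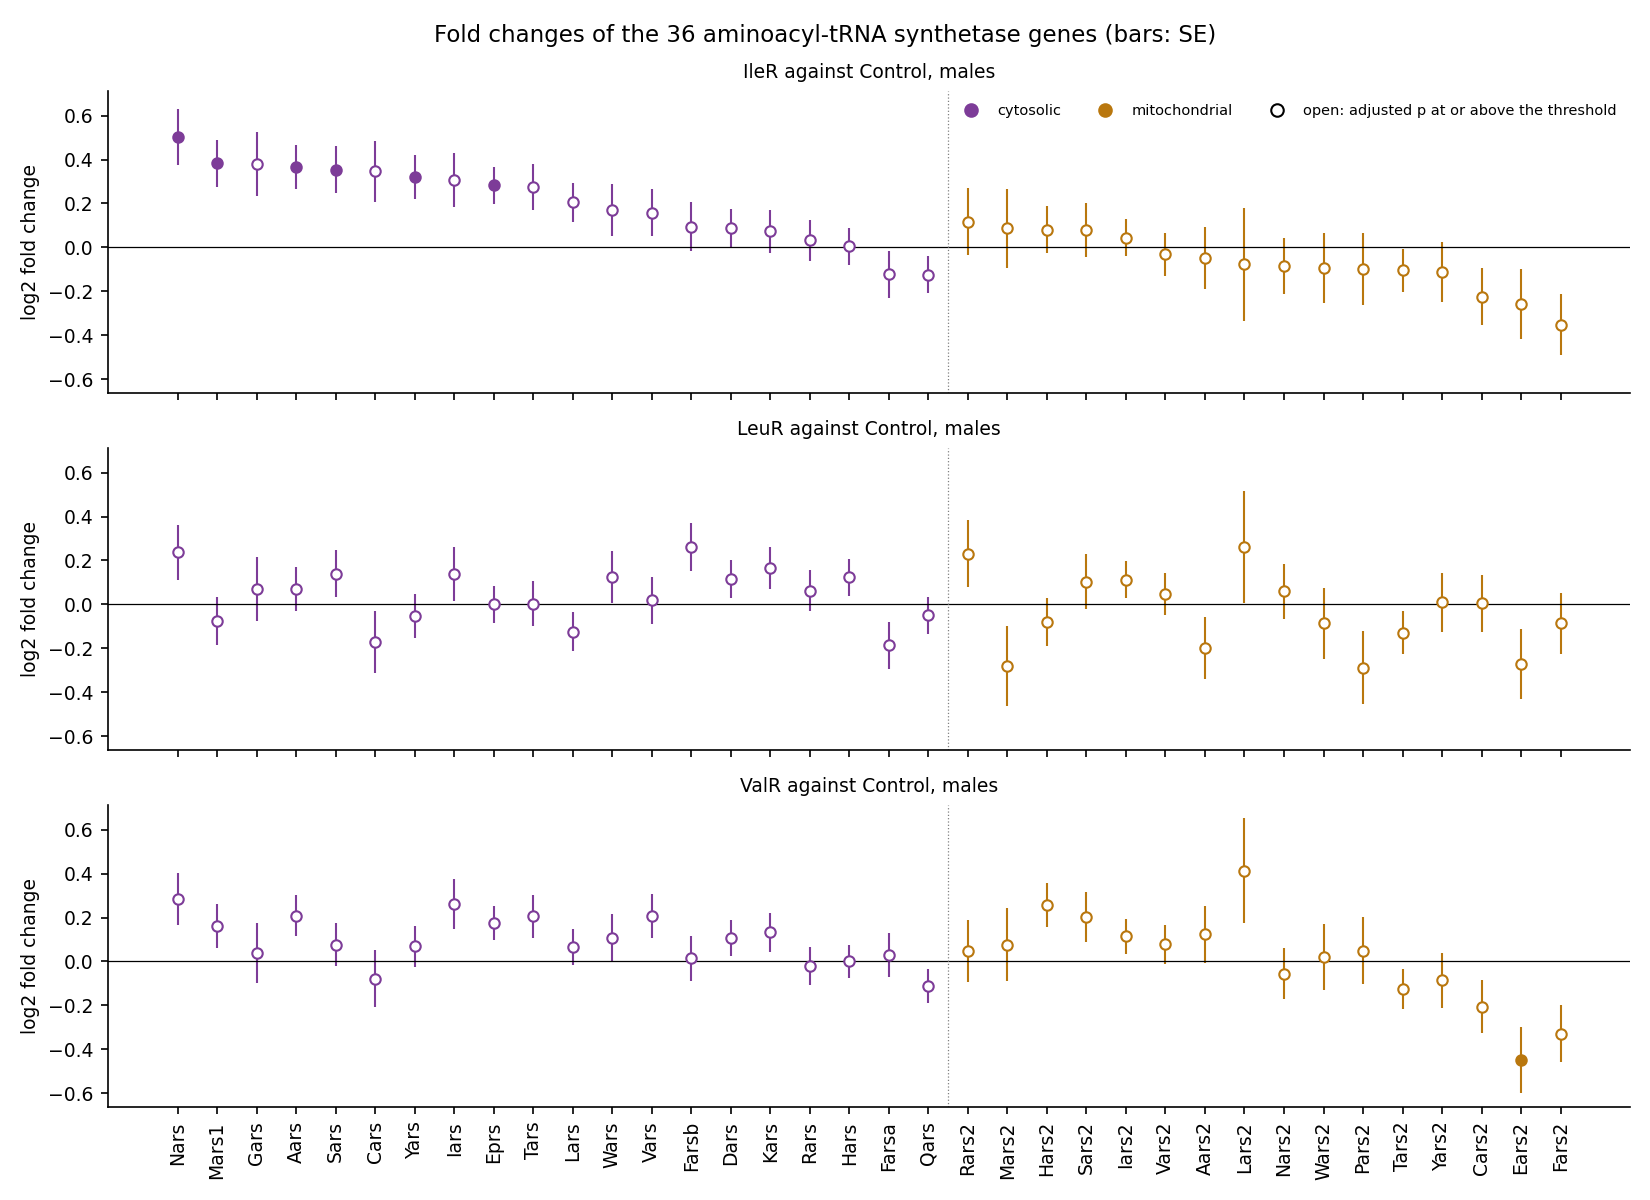
Log2 fold change against Control (bars SE) of the 36 genes in males for each diet, with cytosolic and mitochondrial genes apart. Filled points passed the threshold, which 6 cytosolic genes did in IleR, none in LeuR and Ears2 in ValR.

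Nars showed the largest fold change of a member in IleR males, 0.50 ± 0.13 (adjusted p = 0.0175). In males it stood at 234, 229.8, 238 and 235 CPM in Control, 338, 363 and 295 in IleR, 338, 268 and 222 in LeuR and 282, 321, 273 and 264 in ValR. All IleR and all ValR libraries lay above the 4 Control libraries, while LeuR 21 lay below them. Such separation was common in males. Every IleR library lay above every Control library in 14.8% of all genes and 8 of the 36 members, and below in 14.5% and 4 of 36. Every ValR library lay above in 12.7% and 4 of 36, and below in 13.6% and 1 of 36. Aars rose by 0.37 ± 0.10 (adjusted p = 0.0260). Its levels were 211, 218, 216 and 218 CPM in Control, 259.7, 315 and 257 in IleR, 253, 228 and 198 in LeuR and 247, 270.0, 238 and 239 in ValR. Every IleR and ValR library was again above every Control library, with IleR 14 the highest of all 14. Exons of Aars overlap Exosc6 on the same strand, a gene with a median count of 0.

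Mars1, part of the multi-synthetase complex, rose by 0.38 ± 0.11 (adjusted p = 0.0281). It was measured at 65.1, 63.4, 63.9 and 59.9 CPM in Control, 69.3, 90.0 and 87.3 in IleR, 58.3, 63.9 and 57.3 in LeuR and 65.6, 62.1, 74.6 and 80.0 in ValR. The 3 IleR libraries lay above all Control and LeuR libraries, and IleR 13 lay below ValR 10 and ValR 12. Exons of Mars1 overlap Ddit3 on the opposite strand, and whether the counting used strand is not given in the sources used here, so reads of these genes may be mixed. Sars rose by 0.35 ± 0.11 (adjusted p = 0.0378). Its values were 170.2, 191, 191 and 179 CPM in Control, 236, 262 and 203 in IleR, 226, 191 and 188 in LeuR and 190.1, 216, 184 and 181 in ValR. IleR and Control did not overlap, and LeuR 19 and ValR 9 lay above IleR 17.

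Eprs, a double enzyme of the complex, rose by 0.28 ± 0.09 (adjusted p = 0.0393). Its libraries read 116, 128, 111 and 122 CPM in Control, 145, 151 and 139 in IleR, 130.0, 120.0 and 108 in LeuR and 124, 136, 142 and 136 in ValR. Yars rose by 0.32 ± 0.10 (adjusted p = 0.0460). It stood at 109.6, 109.9, 98.9 and 105 CPM in Control, 118, 157 and 122 in IleR, 109, 103 and 93.9 in LeuR and 109, 107, 117 and 112 in ValR. Exons of Yars overlap C77080 on the opposite strand. Neither gene overlapped between IleR and Control, and for Yars IleR 14 lay far above the other IleR libraries. Without IleR 14 the Yars value was 0.18 ± 0.09.

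**Figure D3:**
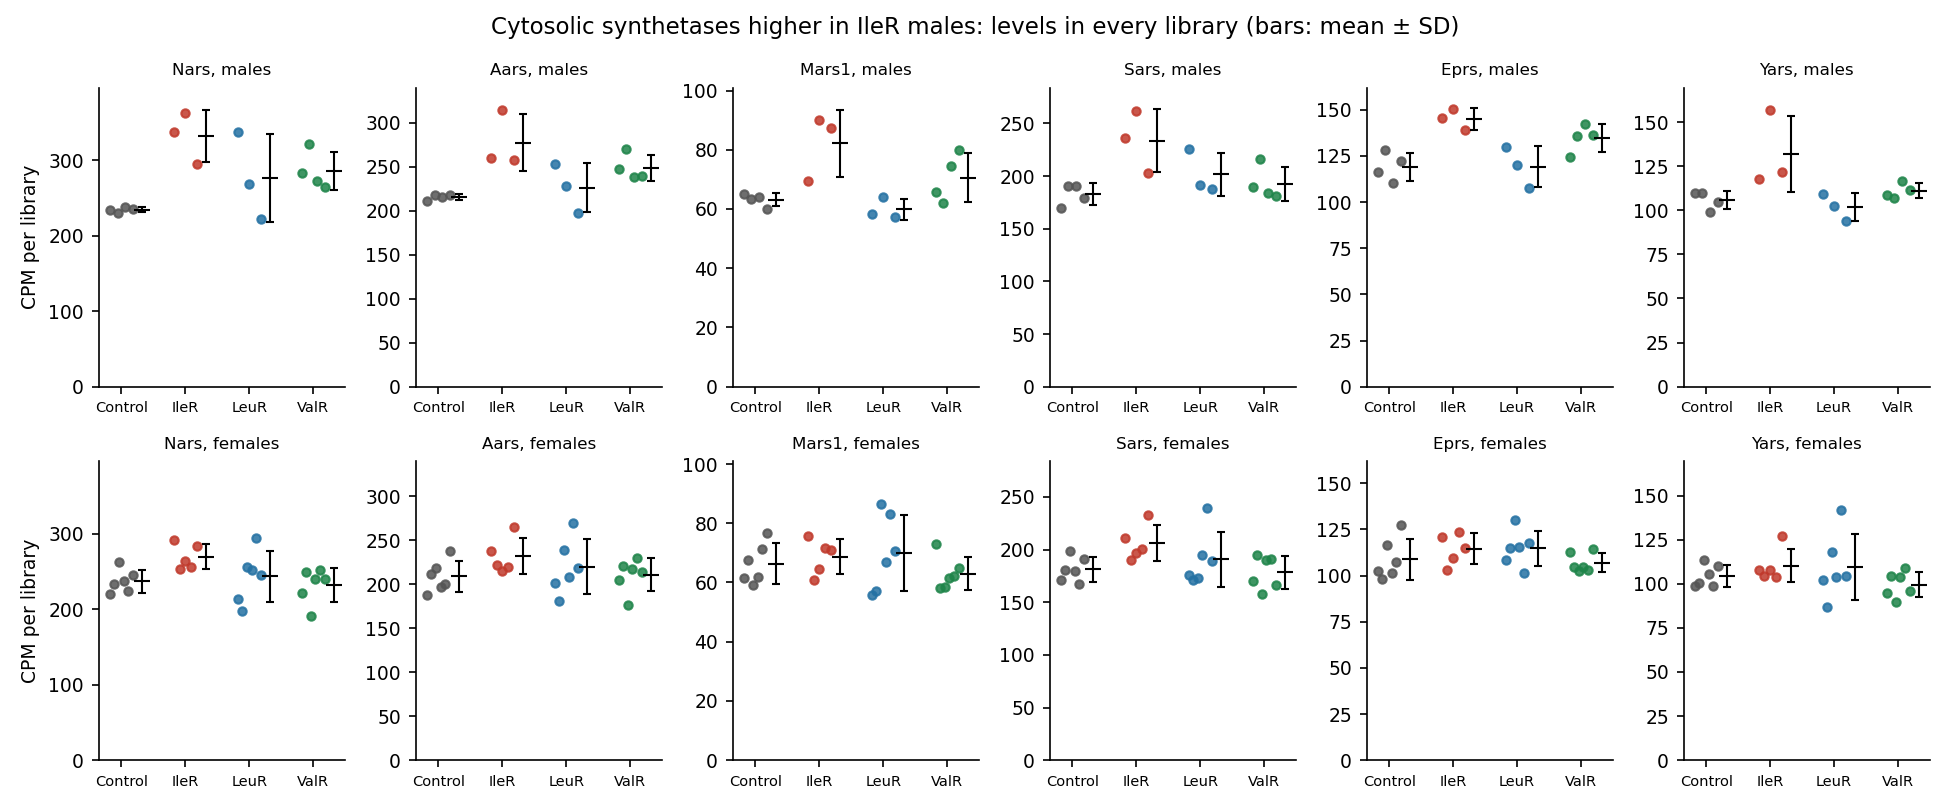
CPM (y axis) of the 6 synthetases called higher in IleR males, by diet (x axis), 1 point per library, in males and females. In males all IleR points lie above all Control points for each of the 6 genes, as in 14.8% of all genes; in females the ranges of IleR and Control overlap for all 6.

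DESeq2 called the same 6 genes higher, where it called 8.37% of all genes higher, limma voom and RLE size factors gave 5 each, and a fit of Control and IleR alone gave 4. Yars was called in 2 of 8 other settings, not by limma voom or with RLE size factors, and Sars in 5 of 8. The count of 6 also rested on few libraries. Leaving out IleR 14 left 0 of the 36 called, while the 6 genes kept positive fold changes with a median of 0.26 and 5 of 6 at an unadjusted p under 0.05. Calls over all genes fell there too, from 1472 to 737 higher. The count was 1 without Control 1 or Control 5, 2 without Control 3 or IleR 17, 3 without ValR 12 or LeuR 20, 4 without IleR 13, and 8 without LeuR 21. The 4 were Mars1, Yars, Cars and Tars (threonine), the last pair outside the 6. In these 8 fits 829, 1068, 872, 648, 1275, 1302, 988 and 1898 genes in all were called higher, in the order named. Nars was called in 12 of the 14 fits that left out 1 library, Mars1 in 9, Aars in 8, Eprs in 6, Sars in 5 and Yars in 3. With the hindbrain score as a covariate 0 members were called, where 0.0135% of all genes (3) were called higher and 0 lower, so that count says nothing about the members. The IleR values in that fit were -0.12 ± 0.25 for Nars, -0.06 ± 0.21 for Aars, 0.22 ± 0.27 for Mars1, 0.04 ± 0.24 for Sars, 0.08 ± 0.20 for Eprs and 0.06 ± 0.24 for Yars.

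A contrast of IleR with the mean of LeuR and ValR set no Control library against IleR, although the Control libraries entered its normalization and estimate of spread. Hindbrain scores were 3.18 to 4.62 in IleR, -1.70 to 4.22 in LeuR and 4.64 to 5.50 in ValR. edgeR called no gene in it (0.0%), while 539 genes, 8 of them members, had an unadjusted p under 0.05; DESeq2 called 4 genes and limma voom 0, with 0 members among them. The differences were 0.34 ± 0.10 for Mars1, 0.31 ± 0.09 for Yars, 0.25 ± 0.10 for Sars, 0.24 ± 0.11 for Nars, 0.23 ± 0.09 for Aars and 0.19 ± 0.08 for Eprs, each with an adjusted p of 1.00.

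The other diets gave other counts in males. Under LeuR, where 3.81% of genes were called higher and 6.33% lower, edgeR, DESeq2 and limma voom each called 0 members, and 1 member had an unadjusted p under 0.05. Cytosolic fold changes under LeuR had a median of 0.07 and mitochondrial ones of -0.04, against 0.05 over all genes. Nars was called higher without LeuR 21, and Farsb (phenylalanine) without Control 4, where 7.09% and 7.90% of all genes were called higher. Under ValR, where 11.1% of genes were called higher and 12.4% lower, 0 members were higher and 1 was lower. This was Ears2, the mitochondrial glutamate enzyme, at -0.45 ± 0.15 (adjusted p = 0.0442). It was low throughout, with 11.9, 14.0, 10.6 and 11.8 CPM in Control, 10.2, 9.68 and 10.4 in IleR, 8.37, 8.99 and 12.6 in LeuR and 9.50, 7.75, 8.43 and 9.68 in ValR. Exons of Ears2 overlap Ubfd1 on the opposite strand. ValR and Control did not overlap (ValR lay wholly below Control in 13.6% of all genes), yet the call was lost without Control 1, 3 or 5, without any 1 ValR library, or without IleR 13 or 14. With the hindbrain covariate the Ears2 value was 0.45 ± 0.34. The 6 genes called in IleR were all above zero in ValR, with a median of 0.17, and 4 of 6 in LeuR, with a median of 0.04. With the hindbrain covariate 0 of 6 were above zero in either diet, with medians of -0.24 in ValR and -0.22 in LeuR. Without LeuR 21 or with only Control and ValR fitted, Iars and Nars were called higher in ValR, and 1 member was called without Control 3 (Vars), ValR 9 (Hars2) or LeuR 19 (Nars). Of all genes 13.3%, 11.6%, 8.11%, 11.2% and 11.1% were called higher in these 5 fits, in the order named, so 1 or 2 of 36 members lay below the background.

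The diets share the 4 male Control libraries, so their values stand side by side and are not separate evidence. By complex membership, 2 of the 8 members of the multi-synthetase complex (Mars1 and Eprs) and 4 of the 12 other cytosolic genes were called in IleR, with median fold changes of 0.15 and 0.30. These shares were 25.0% and 33.3%, where 6.63% of all genes were called higher. No member was called without IleR 14, and counts this small do not tell the groups apart.

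With all libraries, edgeR called none of the 6 enzymes of the restricted amino acids against Control in either sex; without LeuR 21, Iars was called higher in IleR and ValR males, and without Control 3, Vars in ValR males. In IleR males, where 6.63% of all genes were called higher, the 17 cytosolic enzymes for other amino acids had 6 calls and a median fold change of 0.28. Iars, Lars and Vars had 0 calls and a median of 0.20, and these 3 genes are too few to be set apart by such a count. Iars was 0.31 ± 0.12 (adjusted p = 0.108) in IleR, and -0.29 ± 0.25 with the hindbrain covariate. It stood at 74.9, 83.6, 73.7 and 82.2 CPM in Control, 92.3, 108 and 90.8 in IleR, 104, 86.2 and 68.6 in LeuR and 89.9, 102, 91.6 and 93.7 in ValR. All IleR and all ValR libraries lay above Control, as did LeuR 19 and LeuR 20. Against the mean of LeuR and ValR, Iars in IleR differed by 0.11 ± 0.11 (adjusted p = 1.00).

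Lars was measured at 45.2, 49.8, 47.3 and 52.0 CPM in Control, 53.3, 62.7 and 52.0 in IleR, 45.2, 46.0 and 42.6 in LeuR and 46.1, 54.7, 51.6 and 51.1 in ValR. All 3 LeuR libraries lay below every IleR and ValR library and overlapped Control. The difference of LeuR from Control was -0.12 ± 0.09 (adjusted p = 0.413), and from the mean of IleR and ValR -0.26 ± 0.08 (adjusted p = 0.100). DESeq2 called that last difference lower, together with Eprs and Mars1, as it did 5.32% of all genes. In the same contrast edgeR called 0.0% of all genes, with 4898 at an unadjusted p under 0.05, limma voom called 0, and DESeq2 called 799 higher and 1181 lower. The LeuR libraries spread over hindbrain scores from -1.70 to 4.22, and with the score as a covariate the Lars difference was -0.22 ± 0.11 (adjusted p = 0.326), in a fit that called 0 genes.

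Vars read 46.9, 64.7, 50.4 and 57.6 CPM in Control, 56.8, 66.0 and 61.0 in IleR, 55.3, 54.2 and 57.5 in LeuR and 59.0, 68.8, 65.8 and 59.8 in ValR. Its ValR libraries overlapped Control through Control 3. The differences were 0.21 ± 0.10 (adjusted p = 0.160) against Control and 0.12 ± 0.09 (adjusted p = 0.561) against the mean of IleR and LeuR, a contrast in which edgeR called 0.0% of genes (3455 at an unadjusted p under 0.05), limma voom 0, and DESeq2 306 higher and 252 lower. Iars2 in IleR differed from Control by 0.04 ± 0.08 (adjusted p = 0.781), with 58.0, 56.3, 59.3 and 62.6 CPM in Control, 63.6, 61.7 and 57.4 in IleR, 65.6, 69.1 and 57.0 in LeuR and 62.3, 68.6, 64.5 and 60.2 in ValR. Vars2 in ValR differed by 0.08 ± 0.09 (adjusted p = 0.590), with 25.3, 27.2, 26.0 and 25.3 CPM in Control, 23.6, 24.8 and 27.8 in IleR, 23.4, 28.4 and 28.8 in LeuR and 26.3, 28.7, 25.9 and 28.6 in ValR. Both genes overlapped Control in their own diet. With the hindbrain covariate the Iars2 value in IleR was -0.19 ± 0.20. Exons of Iars2 overlap Rab3gap2 on the opposite strand.

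Lars2 varied most among these 6 genes. In males it read 126, 82.0, 93.5 and 109.5 CPM in Control, 107, 97.6 and 87.5 in IleR, 157, 117 and 95.9 in LeuR and 129, 219, 102 and 97.9 in ValR, and LeuR differed from Control by 0.26 ± 0.26 (adjusted p = 0.548). Leaving out 1 library moved this value between 0.05 (without LeuR 19) and 0.43 (without LeuR 21). In females it was 90.8 to 237 (median 106) CPM in Control, 76.6, 65.5, 72.7, 304 and 104 in IleR, 64.0 to 82.5 (median 72.0) in LeuR and 66.3 to 110.1 (median 81.2) in ValR. The highest female libraries were IleR 41 and Control 30. The female LeuR difference of Lars2 was -0.84 ± 0.31 (adjusted p = 0.968), and all 6 LeuR libraries lay below all 6 Control libraries, as in 0.0836% of all genes and no other member.

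**Figure D4:**
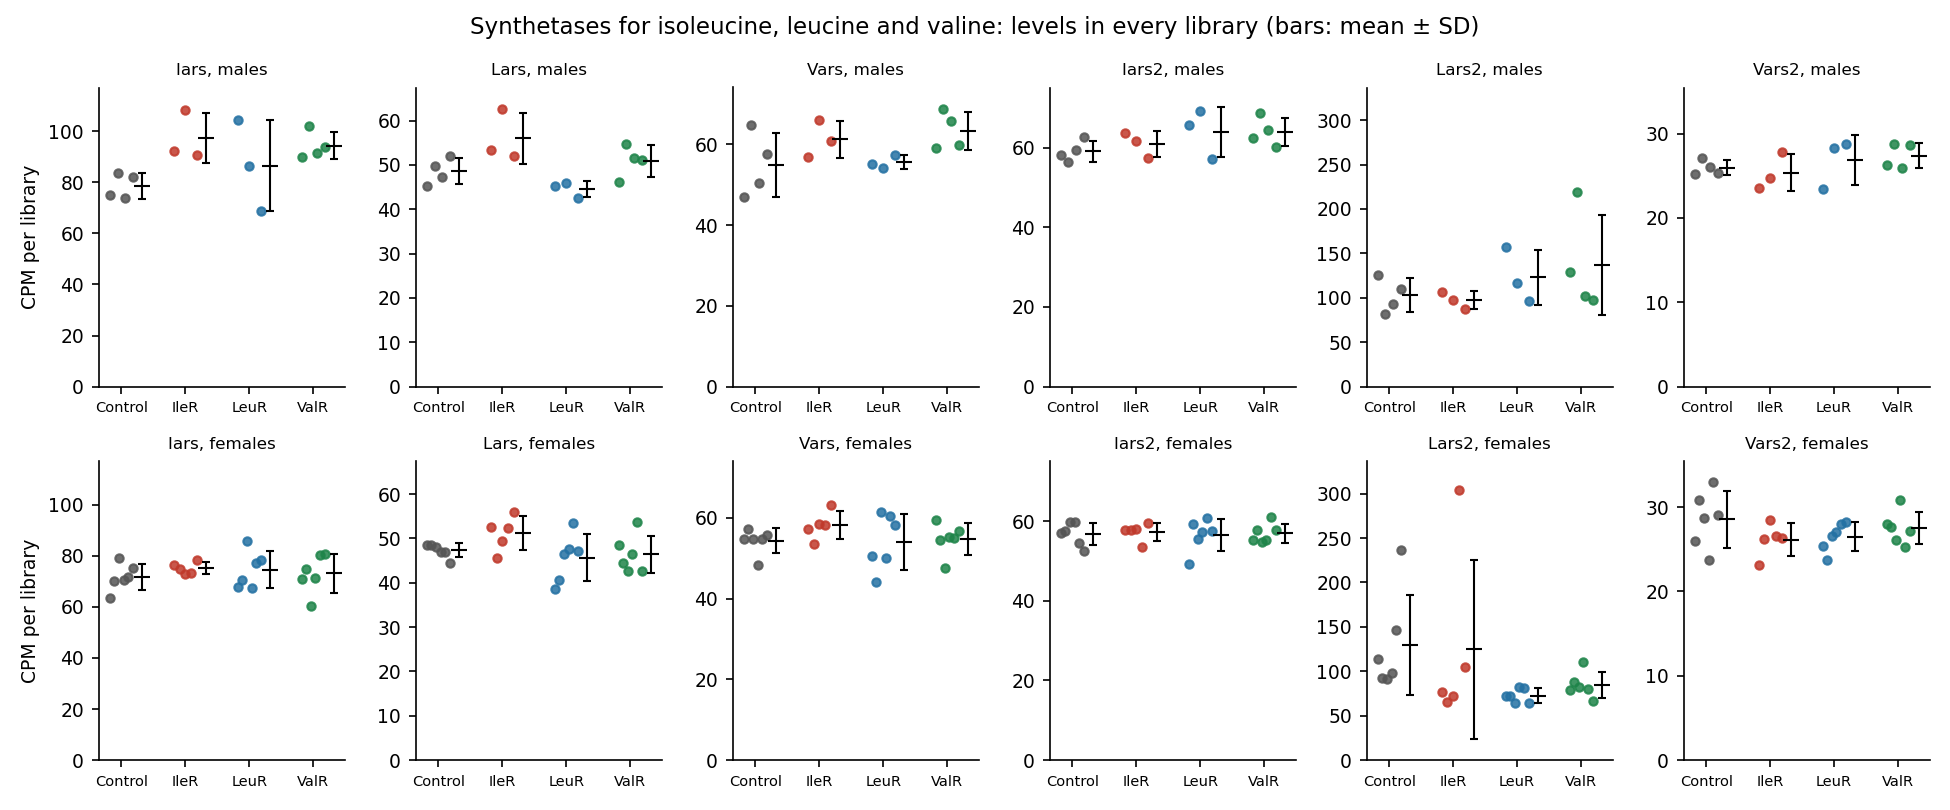
CPM (y axis) of the cytosolic and mitochondrial synthetases for isoleucine, leucine and valine by diet (x axis), 1 point per library, in males and females. With all libraries, edgeR called none of the 6 in its own diet; Lars2 in females has single high points in IleR (304 CPM) and Control (237 CPM).

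In females no member was called for any diet, and edgeR called no other gene either: 0.0% of 20344 genes under IleR, 0.0% under LeuR and 0.0% under ValR. At an unadjusted p under 0.05 there were 577, 820 and 777 genes, of which 4, 1 and 0 were members. DESeq2 and limma voom called 0 members as well, and over all genes DESeq2 called 8, 1 and 0 higher in the same order. The 4 members in IleR were Gars at 0.21 ± 0.08, Sars at 0.19 ± 0.08, Nars at 0.19 ± 0.09 and the mitochondrial tryptophan enzyme Wars2 at 0.36 ± 0.15. Cytosolic values in IleR females had a median of 0.08 with 16 of 20 above zero, mitochondrial ones a median of -0.01 with 8 of 16 above zero, and all genes a median of -0.01.

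Sars in females was 211, 190.4, 197, 201 and 233 CPM in IleR, against 167 to 198 (median 180.0) in Control. Gars was 150.4, 132, 126, 124 and 149 CPM in IleR and 107 to 135 (median 117) in Control. Nars was 291, 253, 264, 256 and 284 CPM in IleR and 221 to 263 (median 235) in Control. The IleR libraries of these genes lay high in the Control range or above it, with overlap. The fold changes of Aars, Mars1, Eprs and Yars in IleR females were 0.15 ± 0.09, 0.05 ± 0.11, 0.07 ± 0.07 and 0.08 ± 0.09.

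Iars in females was 76.5, 74.7, 72.7, 73.4 and 78.5 CPM in IleR and 63.6 to 79.0 (median 71.0) in Control, a difference of 0.07 ± 0.08. Lars was 38.7 to 53.5 (median 46.9) CPM in LeuR and 44.4 to 48.6 (median 47.6) in Control, a difference of -0.05 ± 0.07. Vars was 47.6 to 59.4 (median 55.1) CPM in ValR and 48.4 to 57.4 (median 54.9) in Control, a difference of 0.01 ± 0.07. The groups overlapped for each of these genes. Iars2 in IleR and Vars2 in ValR differed from Control by 0.01 ± 0.05 and -0.05 ± 0.07. Against the mean of the other restricted diets the same 6 genes gave 0 calls in females, where edgeR called 0.0541% of genes for IleR, 0.0% for LeuR (1295 at an unadjusted p under 0.05) and 0.0% for ValR (840).

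The difference between the sexes was tested directly. edgeR called 0 members for any diet, with 0.0979% of 22465 genes called under IleR, 0.00445% under LeuR and 4.25% under ValR, and 2, 2 and 3 members at an unadjusted p under 0.05. The IleR effect in males minus that in females was 0.31 ± 0.16 (adjusted p = 0.270) for Nars and 0.32 ± 0.15 (adjusted p = 0.244) for Mars1. For ValR it was -0.53 ± 0.17 (adjusted p = 0.0670) for Ears2, the lowest adjusted p of a member. DESeq2 called Ears2 and Hars2 (mitochondrial histidine) for ValR, 2 of 36 members where it called 10.5% of all genes, and limma voom called 0 members. The male calls in IleR are therefore not shown to differ from the female values.

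Females, in which diet and score were mixed, gave a measure of how the members moved with regional content. Slopes are per unit of score, and the male medians of the score were -5.08 in Control and 4.09 in IleR. With diet in the fit, 10 members rose and 4 fell with the hindbrain score, where 22.1% of genes rose and 23.8% fell. Of the 6 genes called in IleR males, Eprs rose by 0.03 ± 0.01 (adjusted p = 0.000328) log2 per unit of score and Mars1 by 0.03 ± 0.01 (adjusted p = 0.0192). The slopes of Nars, Aars, Sars and Yars were not called, at 0.01 ± 0.01 (adjusted p = 0.562), 0.01 ± 0.01 (adjusted p = 0.379), -0.01 ± 0.01 (adjusted p = 0.629) and 0.00 ± 0.01 (adjusted p = 0.819). Iars and Vars rose by 0.02 ± 0.01 (adjusted p = 0.0374) and 0.02 ± 0.01 (adjusted p = 0.0377). The remaining members that rose were Farsa, Tars, Aars2, Hars2, Mars2 and Sars2, and those that fell were Hars, Rars, Fars2 and Pars2. Exons of Hars and Hars2 overlap on opposite strands.

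Other cell type markers also moved in IleR males. Summed oligodendrocyte markers were 4420 to 9300 CPM in Control and 9910 to 14500 in IleR, astrocyte markers 1770 to 2590 and 3160 to 3620, and neuron markers 3850 to 5340 and 3310 to 3610, each without overlap. Microglia, endothelium, choroid plexus and blood markers overlapped between these groups. No gene of these 7 lists was at 0 throughout a group. Their part in the synthetase values was not tested.

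Across individual animals, several cytosolic synthetases followed Asns, which makes asparagine and is a known target of ATF4. This relation was looked for after the values were seen. Asns rose by 0.43 ± 0.11 (adjusted p = 0.0196) in IleR males, with 101, 100.2, 89.9 and 94.9 CPM in Control, 117, 153 and 120.1 in IleR, 93.7, 90.8 and 79.4 in LeuR and 91.0, 113, 92.6 and 92.5 in ValR. In females it was 135, 113, 109.8, 111 and 141 CPM in IleR, all above the Control range of 85.2 to 101 (median 99.7), a separation found in 0.108% of all genes, with a fold change of 0.34 ± 0.11 (adjusted p = 1.00). The relation of each of the 36 members to Asns was computed in each sex on log2 CPM, and members are placed by rank among all genes tested, with raw permutation p-values (100000 permutations) that are not adjusted for the number of relations. The values are a description, and the points share their diets and tissue.

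Among the 20 genes closest to Asns of 20343 others in females, 8 were cytosolic synthetases, and 7 of them stood in the first 10. The 8 were Sars (r = 0.88, rho = 0.802), Gars (0.876, 0.867), Nars (0.819, 0.756), Yars (0.777, 0.619), Cars (cysteine; 0.766, 0.652), Lars (0.751, 0.729), Aars (0.744, 0.565) and Wars (0.706, 0.516), over 23 libraries. Their permutation p ran from 1e-05, the smallest these permutations can give, to 0.0001 for r and to 0.0121 for rho. The median r over all genes was -0.006, over the 20 cytosolic members 0.47 and over the 16 mitochondrial members 0.036. Without IleR 42 and LeuR 47, the libraries farthest from the median of Asns, r ran from 0.545 (Aars) to 0.871 (Gars) over the 8 genes. With each diet's mean removed it ran from 0.716 (Aars) to 0.834 (Sars). Of the other genes called in IleR males, Eprs had r = -0.039 (permutation p = 0.86) and Mars1 r = 0.364 (permutation p = 0.0863) in females.

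Over the 14 male libraries, 5 cytosolic synthetases were among the 20 genes closest to Asns of 22196 others, namely Yars, Cars, Lars, Aars and Gars. Atf5, Chac1, Sesn2, Phgdh and Slc7a5 of the response list were there too. In females Slc7a1 (r = 0.718) was the only gene of that list among the 20 closest, and none of those named for males was there. The 5 synthetases in males had r and rho of 0.887 and 0.758 (Yars), 0.884 and 0.802 (Cars), 0.853 and 0.701 (Lars), 0.83 and 0.653 (Aars) and 0.825 and 0.701 (Gars). Their permutation p ran from 0.00012 (Lars) to 0.00056 (Gars) for r and from 0.00079 (Cars) to 0.0133 (Aars) for rho. Of the other genes called in IleR males, r and rho were 0.743 and 0.697 (Eprs), 0.744 and 0.437 (Sars), 0.697 and 0.53 (Nars) and 0.676 and 0.442 (Mars1), with permutation p for rho from 0.00712 (Eprs) to 0.121 (Sars). Without IleR 14 and IleR 17, r was 0.642 for Yars, 0.61 for Cars, 0.722 for Lars, 0.64 for Aars and 0.74 for Gars. With each diet's mean removed the same genes had r of 0.714, 0.759, 0.725, 0.862 and 0.794, and Mars1 of 0.119.

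**Figure D5:**
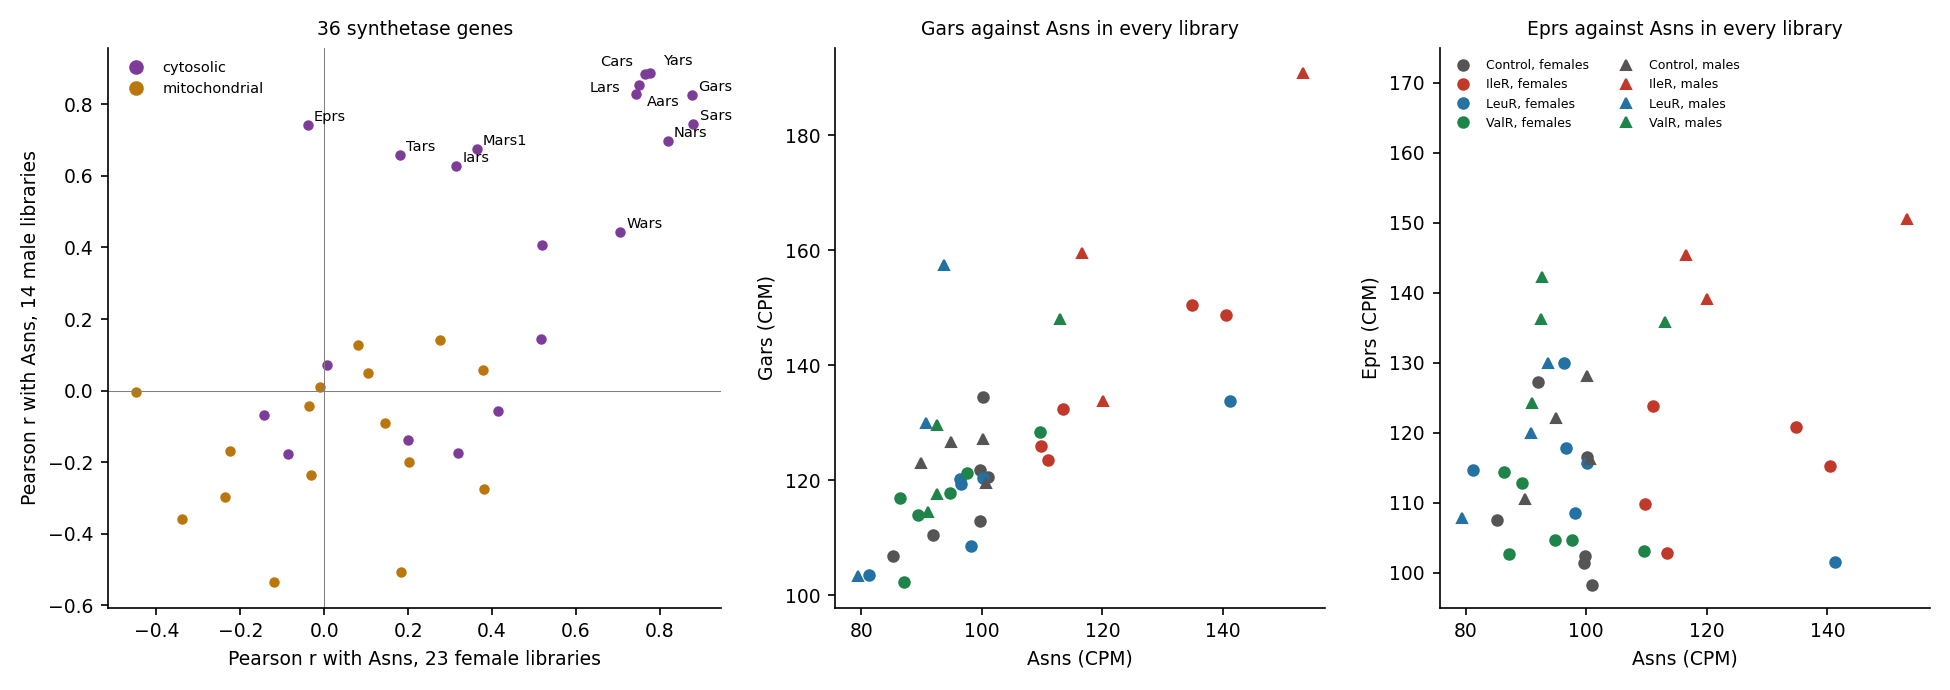
Pearson r of each of the 36 genes with Asns in females and males, and CPM of Gars and of Eprs against Asns CPM with 1 point per library. The mitochondrial genes lie between -0.448 and 0.38 in females and between -0.536 and 0.141 in males; Gars had r = 0.876 in females and 0.825 in males, and Eprs -0.039 and 0.743.

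The amino acid response list moved under the same diet in males. Of its 30 genes 12 were called higher and 0 lower in IleR (40.0% higher against 6.63% of all genes), 0 in LeuR, where 2 had an unadjusted p under 0.05, and 6 higher and 1 lower in ValR (20.0% and 3.3%, against 11.1% and 12.4% of all genes). The 12 in IleR were Asns, Atf5, Chac1, Sesn2, Phgdh, Shmt2, Mthfd2, Aldh18a1, Pycr1, Pck2, Slc7a1 and Vldlr. Mthfd2 and Shmt2, of mitochondrial one-carbon metabolism, rose by 1.20 ± 0.26 and 0.86 ± 0.13, and the transcription factor Atf5 by 0.84 ± 0.15. Chac1, which degrades glutathione, rose by 0.79 ± 0.19, and Sesn2, a leucine sensor, by 0.75 ± 0.18. Atf4 mRNA was -0.18 ± 0.14, Ddit3 0.01 ± 0.16 and Trib3 0.48 ± 0.34, none of them called. In ValR Shmt2, Mthfd2, Pck2, Vldlr, Ddit4 and Slc38a2 were higher and Slc7a11 lower. With the hindbrain score in females, Shmt2, Mthfd2, Pck2, Vldlr, Sesn2, Aldh18a1, Ddit4, Slc38a2 and Slc7a5 rose, and Cebpb, Slc1a4 and Slc7a11 fell (30.0% and 10.0%, against 22.1% and 23.8% of all genes). In females 0 of the 30 were called in any diet, with 3, 4 and 2 at an unadjusted p under 0.05. Without IleR 14 the male IleR count was 2 (Atf5 and Shmt2), where 737 of all genes were called higher. The list's median was then 0.32, against 0.39 with all libraries, with 23 of 30 above zero and 12 at an unadjusted p under 0.05, and Mthfd2 was 0.95 ± 0.27 (adjusted p = 0.0502). With the hindbrain covariate the count was 0, beside 3 of all genes, and the median 0.06. In that fit Mthfd2 was -0.48 ± 0.39, Shmt2 0.38 ± 0.31, Atf5 0.35 ± 0.35, Chac1 0.24 ± 0.48 and Sesn2 -0.07 ± 0.38 in IleR. The list's median in ValR males was 0.16 in the main fit and -0.23 with the covariate.

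Of 9 partners of the synthetases, edgeR called 1 higher in IleR males and 1 in ValR males (11.1% each), where 6.63% and 11.1% of all genes were called higher. Aimp1, Aimp2 and Eef1e1, the scaffold of the multi-synthetase complex, had fold changes in IleR of 0.01 ± 0.09, -0.18 ± 0.10 and 0.08 ± 0.12. Qrsl1, a subunit of the enzyme that makes mitochondrial glutaminyl-tRNA, was higher in IleR, at 0.36 ± 0.10 (adjusted p = 0.0318), and in ValR, at 0.40 ± 0.10 (adjusted p = 0.00907), and it rose with the hindbrain score in females (adjusted p = 0.000273). Its fellow subunits Gatb and Gatc were -0.10 ± 0.14 and 0.05 ± 0.10 in IleR. Eif2ak4, the sensor of uncharged tRNA, was 0.23 ± 0.11 (adjusted p = 0.181) in IleR, its partner Gcn1 -0.25 ± 0.14 (adjusted p = 0.243), and Impact, an inhibitor of that pathway, 0.17 ± 0.30 (adjusted p = 0.761).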

How the data were processed

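Bulk RNA-seq of brain RNA was deposited as tables of expected counts per gene; the authors aligned the reads to mouse GRCm38.p5, estimated counts per Ensembl gene, some of them not whole, and state that clear outlier samples were removed after PCA. The sources differ on the library kit, polyA-enriched in one label and total RNA in another and in the study's methods (both stranded); whether counting used strand is not given in the sources used here. Of the identifiers, 3333 are absent from GENCODE M21, used here for names and positions. The aligner is not given in the sources used here, and the submitters' notes name R 3.4.3, edgeR and limma. The expected counts were rounded here and fitted per sex over the 4 diets with edgeR 4.0.16 in R 4.3.3 (TMM, quasi-likelihood test, Benjamini-Hochberg threshold 0.05), dropping genes for which each diet group had a library without a count. Contrasts were each diet against Control, each diet against the mean of the other restricted diets, and males minus females. A slope on the hindbrain score was fitted in females with diet in the model. DESeq2 1.42.0, limma 3.58.1 (voom), RLE size factors, other filters, the hindbrain covariate, only the groups compared, and leaving out each library were alternatives; leaving out Control 4 and LeuR 21 together, and the relation to Asns, were added after seeing the data. Total counts per library, given with the results, set the precision. Scripts were tested on simulated data. Log2 CPM used a prior count of 2.

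The 36 members and all lists were chosen with earlier results of these data known. Genes given in full were the isoleucine, leucine and valine enzymes and members called against Control, at most 10 of them; the partners and set response genes were also named. Deposited tables of the authors' own differential expression (fold changes and p-values) were not used. Some details of the genotype and the marker lists are not reported here.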

Additional observations from a re-analysis of the deposited data

Results flagged for a closer look

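In 4 of 78 groups of 4 to 6 libraries tested, 1 library lay far from the others of its group by Dixon's test, which chance does in about 1 in 20 groups. Lars2 stood at 303.6 CPM in female IleR 41, with the next library at 104.4 and the lowest at 65.48. Vars stood at 48.35 CPM in female Control 28, with the next at 54.84 and the highest at 57.35. Sars stood at 239.9 CPM in female LeuR 47, with the next at 194.8 and the lowest at 171.1. Yars stood at 127.0 CPM in female IleR 42, with the next at 108.0 and the lowest at 104.1. IleR 42 and LeuR 47 were also the female libraries with the highest Asns.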

How the results depend on the processing

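The count of members higher in IleR males was 6, and was 5 by limma voom or with RLE size factors, 4 when only Control and IleR were fitted, 3 without a filter and 0 with the hindbrain covariate, and 0 to 8 when 1 library was left out. Over all genes the shares called higher were 6.63%, then 7.38%, 6.28%, 6.16%, 4.13% and 0.0135% in the order of the settings named, and 2.84% to 8.80% when 1 library was left out. The count lower in IleR males was 0, and 1 by DESeq2 (Fars2), beside 11.4% of all genes. In LeuR males the count higher was 0, and 1 with Control 4 and LeuR 21 both left out, where the count lower was also 1 (10.4% of all genes higher and 11.3% lower), and 0 to 1 when 1 library was left out (0.631% to 7.90% higher). In ValR males the count higher was 0, and 2 when only Control and ValR were fitted (11.6% of all genes), and 0 to 2 when 1 library was left out (7.66% to 13.3%). The count lower in ValR males was 1, and 2 by DESeq2, 0 without a filter, 0 with the covariate, and 0 to 1 when 1 library was left out, beside 14.2%, 7.74%, 0.0% and 9.55% to 13.2% of all genes. DESeq2 called 2 members for the difference between the sexes in ValR and 1 of the 6 isoleucine, leucine and valine enzymes (Lars) in the contrast of its own diet in males. Signs were compared for the called genes in the diet of their call and for the isoleucine, leucine and valine enzymes in their own diets. Among these, with the covariate the sign turned for Aars (-0.0572), Nars (-0.12), Iars (-0.29) and Iars2 (-0.19) in IleR males, Lars2 (-0.0316) in LeuR males and Ears2 (0.45) in ValR males. When 1 library was left out, values ran from -0.0076 to 0.038 for Iars2 in IleR females against Control, from -0.0047 to 0.0376 for Iars2 against the other restricted diets, from -0.12 to 0.26 for Lars2 in LeuR males against the other restricted diets, from -0.0212 to 0.0472 for Vars in ValR females against Control and from -0.0627 to 0.0002 for Vars against the other restricted diets. The cause of these changes was not tested. No paired analysis was possible because no replicate number occurs in more than 1 group. Group sizes of 3 to 6 libraries and, in males, the lack of overlap in the hindbrain score limit these comparisons.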

Other observations

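A gene listed as ENSMUSG00000119584, without a name in the tables used here and picked after the values were seen, was highest in the libraries where Lars2 was highest. In females it read 3668 CPM in IleR 41 and 2988 in Control 30, and at most 1721 in the other 21 libraries. In males it read 2707 CPM in ValR 9 and at most 1844 in the others. Its part in the Lars2 values was not tested.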
